A study of Mus musculus with 13 samples.

Results

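Galectins, the fibrinogen-like protein Fgl2 and the cytokine subunit Ebi3 are secreted or cell-surface products often discussed as effectors of regulatory T (Treg) cells. The 6 genes *Lgals1*, *Lgals3*, *Lgals8*, *Lgals9*, *Fgl2* and *Ebi3* were taken by symbol from both deposited count tables, 6 of 24417 genes, and all 6 passed the filter on low counts in both experiments. The study asked how Treg cells change when Foxp3 expression is restored during severe autoimmune inflammation, and how Treg “wannabes”, cells that transcribe the *Foxp3* locus without making functional Foxp3, change in inflamed mice. It named *Lgals1*, *Lgals3* and *Fgl2* from these same libraries, so their counts below are not independent evidence of a direction.

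All mice were C57BL/6, and T cells were sorted from spleen and lymph node. Per the study's methods, cells were sorted doubly, and the sort kept those positive for TCRβ and CD4 and negative for CD8 and NK1.1 (the product of *Klrb1c*). This gate selects against myeloid, dendritic, B, CD8 T and NK cells, but the purity reached is not given in the sources used here. In the male experiment, 3 control Treg libraries came from healthy *Foxp3*DTR-GFP/y *Cd4*creERT2 mice, 3 rescued Treg libraries from *Foxp3*LSL/y *Cd4*creERT2 mice, and 2 male wannabe libraries from *Foxp3*LSL/y *Cd4*wt mice, which remained sick. Every male mouse was given 4-hydroxytamoxifen, abbreviated 4-OHT, at postnatal day 14 and was analyzed on day 21. The *Foxp3*LSL allele holds a loxP-flanked Thy1.1 reporter and STOP cassette, which creERT2 removes once 4-OHT is given. Because *Cd4* drives creERT2, an inducible enzyme, recombination can occur in any cell that expresses *Cd4* while 4-OHT is active. In the female experiment, 3 resting wannabe libraries came from *Foxp3*LSL/WT *Cd4*wt mice and 2 activated wannabe libraries from *Foxp3*LSL/DTR *Cd4*wt mice. These numbers follow the title and genotype of each library, whereas the design text of the series gives them the other way round. These females were treated at 8 to 10 weeks of age with diphtheria toxin 7, 5, 3 and 1 days before analysis, which depletes Treg cells that express DTR and spares those of *Foxp3*LSL/WT mice. The activated wannabes therefore differed from the resting ones in genotype as well as in the inflammation around them. Control and rescued Treg cells also differed in their *Foxp3* allele.

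The libraries held between 25556783 and 36659638 counted reads (median 31462226). All 9 T cell markers exceeded 3 counts in every library, with a summed level of 5914.8 to 8719.5 CPM (counts scaled to a common library total), against 10.47 to 44.59 for B cell, 2.02 to 14.08 for myeloid, 0.8916 to 8.041 for dendritic, 0 to 2.034 for granulocyte and 13.78 to 36.94 for CD8 and NK cell markers. *Foxp3* counts were 5107 to 8758 in control Treg, 23005 to 39648 in rescued Treg and 1659 to 3039 in the 7 wannabe libraries, and *Thy1*, which the LSL allele carries as Thy1.1, was at 5257 to 9950 counts in wannabes and 921 to 1545 in Treg cells. Levels are given as normalized counts, scaled with edgeR's TMM method within each experiment, and are therefore compared only within an experiment. Changes are log2 fold changes, called at an adjusted p under 0.05 with edgeR's quasi-likelihood test and Benjamini-Hochberg adjustment over all genes tested.

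Galectins bind β-galactoside sugars on glycoproteins. Galectin-1 (*Lgals1*) forms dimers from a single type of carbohydrate recognition domain, galectin-3 (*Lgals3*) joins such a domain to a flexible tail that lets it assemble into lattices, and galectin-8 (*Lgals8*) and galectin-9 (*Lgals9*) each carry a pair of different domains in tandem. Fgl2 exists as a membrane-bound prothrombinase and as a soluble protein that binds inhibitory Fcγ receptors, and Ebi3 is the β-subunit that pairs with p28 (*Il27*) in IL-27 and with p35 (*Il12a*) in IL-35. In GRCm38 with GENCODE M21, *Lgals1* lies at chr15:78926725-78930465 on the plus strand, *Lgals3* at chr14:47367751-47386160 on the plus strand, *Lgals8* at chr13:12439415-12464944 on the minus strand and *Lgals9* at chr11:78962974-78984946 on the minus strand. *Fgl2* lies at chr5:21372642-21378374 and *Ebi3* at chr17:55952640-55957022, both on the plus strand.

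The difference of changes between the experiments, given below, called *Ebi3* and, less firmly, *Fgl2* (in 4 of 13 fits that leave out a library). Sequence just before their RefSeq transcription starts is therefore shown (GRCm38.p6, plus strand, 5′ to 3′). For *Fgl2* this is chr5:21372637-21372663, 36 to 10 bases before the RefSeq start, a stretch that runs into the GENCODE gene model. For *Ebi3* it is the 250 bases of chr17:55952373-55952622. Capitals mark letters of a searched motif.
*Fgl2*: TTCTGGGAActcagaacgccTGAGTCA
*Ebi3*: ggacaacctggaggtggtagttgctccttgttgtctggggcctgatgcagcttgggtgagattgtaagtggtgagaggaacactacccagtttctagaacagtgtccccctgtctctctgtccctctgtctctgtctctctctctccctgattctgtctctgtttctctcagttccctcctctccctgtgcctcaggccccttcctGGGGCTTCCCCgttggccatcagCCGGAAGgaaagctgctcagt

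The motifs were searched on both strands of the 250 bases before the start, which RefSeq gave for 5 of the 6 members (all but *Lgals1*). The STAT letters TTCNNNGAA were found in *Fgl2* only, and in 7.18% of all 27025 promoters. The AP-1 letters TGANTCA were also found in *Fgl2* only, and in 6.87% of promoters. The NF-kB letters, GGG and CC with any 5 bases between them, were found in *Lgals3*, *Lgals8*, *Lgals9* and *Ebi3*, but they occurred in 45.4% of promoters. In *Ebi3* they matched 2 overlapping windows, each on both strands, 44 to 34 bases before the start. The ETS letters CCGGAAG were found in *Ebi3* only, 21 to 15 bases before the start, and in 7.05% of promoters. The NFAT letters GGAAAA and the TATA letters TATAAA were in none of the 5 members, against 20.6% and 13% of promoters. These matches describe letters in the window and not bound sites.

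**Figure D1:**
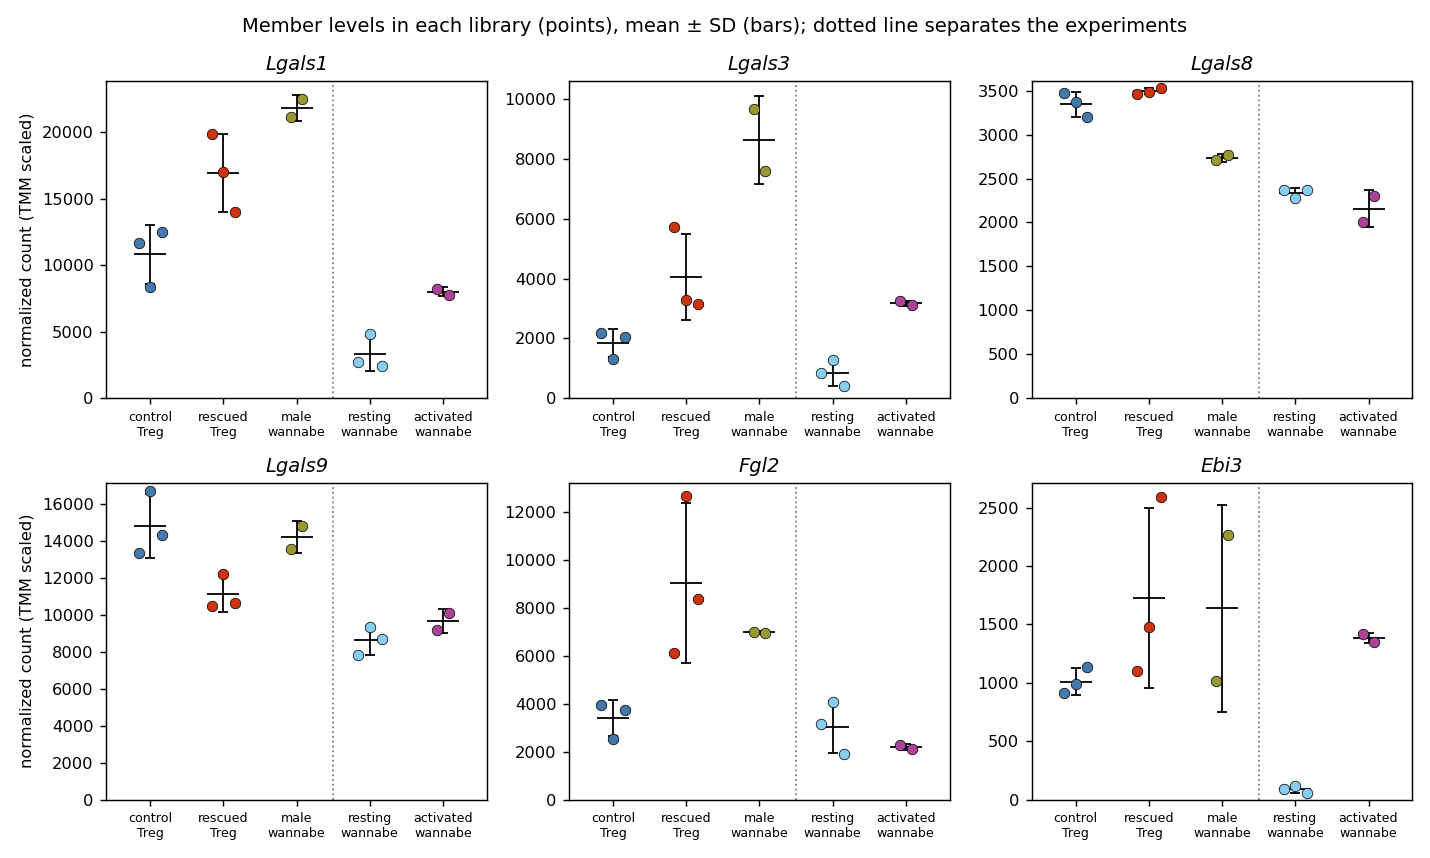
Normalized count (TMM scaled, linear axis from 0) of each member in every library (points) with the group mean ± SD (bars), for 3 control Treg, 3 rescued Treg, 2 male wannabe, 3 resting wannabe and 2 activated wannabe libraries; the dotted line separates the experiments, which were normalized separately. *Ebi3* lay between 60.26 and 116.2 in resting wannabes and at 1353.7 and 1417.6 in activated wannabes.

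In Treg cells of rescued against control mice, 1 of the 6 members was called, *Fgl2*, which was higher, beside 2.30% of all 14925 genes tested. The members' median log2 fold change was 0.71, against -0.03 over all genes. In these bulk libraries, more cells with a transcript and more of it per cell cannot be told apart.

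The *Lgals1* normalized count was 11633.7, 8327.5 and 12524.1 in the control Treg libraries and 19867.9, 16995.1 and 13989.0 in the rescued Treg libraries. Every rescued library was above every control library, by 1.56-fold in the means (10828.4 ± 2211.2 against 16950.7 ± 2939.7, SD, n = 3 each), but the change did not pass the test (log2 fold change 0.65 ± 0.18 SE, adjusted p = 0.0967). DESeq2, which the study used, did call it (log2 fold change 0.67, adjusted p = 0.0213), whereas edgeR called it in 0 of the 8 fits that leave out a library (0.49 to 0.77, adjusted p = 0.0687 to 0.343).

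*Lgals3* was at 2181.0, 1309.6 and 2043.8 in control and at 5709.6, 3280.3 and 3140.3 in rescued Treg cells. The groups did not overlap, and rescued replicate 1 stood above the other rescued libraries. The means, 1844.8 ± 468.5 and 4043.4 ± 1444.7 (SD, n = 3), differed 2.19-fold, with a log2 fold change of 1.13 ± 0.26 (SE) that just missed the threshold (adjusted p = 0.0528). It passed with DESeq2 (1.15, adjusted p = 0.00186), without the filter (1.13, adjusted p = 0.00675), with only the 2 groups in the fit (1.14, adjusted p = 0.047) and when either male wannabe library was left out (1.13 and 1.14, adjusted p = 0.0357 both times). It did not pass when any 1 of the 6 Treg libraries was left out, with values from 0.80 to 1.29 and adjusted p-values up to 0.181.

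*Lgals9* went the other way. Its normalized count was 13333.0, 16702.3 and 14336.7 in control and 10482.9, 12234.7 and 10629.2 in rescued Treg cells, so every rescued library was below every control library. The difference did not pass the test (log2 fold change -0.41 ± 0.14 SE, 95% interval -0.72 to -0.11, adjusted p = 0.16). *Lgals8* was at 3475.9, 3368.9 and 3196.8 in control and 3466.6, 3483.8 and 3532.4 in rescued Treg cells, overlapping groups whose log2 difference had a 95% interval of -0.25 to 0.37.

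*Fgl2* rose from 3941.5, 2530.8 and 3727.1 in control to 6099.8, 12672.8 and 8355.8 in rescued Treg cells. All rescued libraries were above all control libraries and varied more, with means of 3399.8 ± 760.2 and 9042.8 ± 3339.9 (SD, n = 3), a 2.66-fold difference. The log2 fold change was 1.41 ± 0.26 (SE, adjusted p = 0.0182). The call was lost when any 1 control library was left out, with log2 fold changes of 1.53, 1.24 and 1.48 and adjusted p-values of 0.0605, 0.0841 and 0.0641 without control replicates 1, 2 and 3.

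*Ebi3* was at 909.8, 988.6 and 1133.2 in control and at 1104.5, 1481.4 and 2586.6 in rescued Treg cells. The groups overlapped at their edges, rescued replicate 3 was far above the others, and the log2 fold change of 0.77 ± 0.35 (SE) did not pass the test (adjusted p = 0.306). Without rescued replicate 3 it was 0.35 (adjusted p = 0.696).

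Some markers of other cells differed along with these members between control and rescued Treg cells. The myeloid markers summed to 6.95 to 11.68 CPM in control and 9.719 to 14.08 in rescued libraries, the CD8 and NK cell markers to 13.78 to 26.06 and 21.55 to 28.37, and the dendritic markers to 0.8916 to 1.929 and 2.173 to 3.723. *Cd68*, a lysosomal protein of macrophages, had 7 to 25 counts in control and 78 to 183 in rescued libraries (log2 fold change 3.01, adjusted p = 0.0887). *Fcer1g* had 0 to 4 and 11 to 37 counts and *Tyrobp*, like it a signalling adaptor of myeloid and NK cells, 0 to 5 and 12 to 51. Other myeloid markers lay the opposite way, with *Itgam*, the highest of them in control, at 118 to 361 and 41 to 213 counts (log2 fold change -1.30, adjusted p = 0.475) and *Mpeg1* at 1 to 76 and 0 to 21. Of the CD8 and NK cell markers, *Klrb1c* had 15 to 46 and 48 to 121 counts, *Eomes* 2 to 7 and 21 to 81, and the NK cell receptor *Ncr1* 0 and 0 to 55. edgeR called 0 of either list, 2 and 3 genes having an unadjusted p under 0.05, and DESeq2 called *Cd68*, *Klrb1c*, *Eomes* and *Ncr1* higher. The part of myeloid, dendritic, CD8 T and NK cells in the changes of *Fgl2*, *Lgals3* and *Lgals1* was not tested.

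The counts of *Fgl2* carry a limit that comes from where the gene lies. *Fgl2* sits wholly inside *Ccdc146*, a gene on the opposite strand, at a place where the annotated exons of the pair share 0 bases. The *Ccdc146* row nevertheless held between 99.8% and 103% of the *Fgl2* count in each of the 13 libraries, for example 3725 against 3674 in control replicate 1 and 9083 against 9100 in rescued replicate 3. The rows thus carried nearly the same number, and *Ccdc146* changed by the same amount in rescued against control Treg cells (log2 fold change 1.40 ± 0.26 SE, adjusted p = 0.0188). The library kit does not mark strand and the counting rule is not given in the sources used here, so reads of these genes cannot be told apart. The *Ebi3* row had a looser companion in *Gm16712*, an antisense gene that shares 270 exonic bases with it and held 62.4% to 112% of its count. *Lgals8* shares 155 exonic bases with *Heatr1* on the opposite strand.

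**Figure D2:**
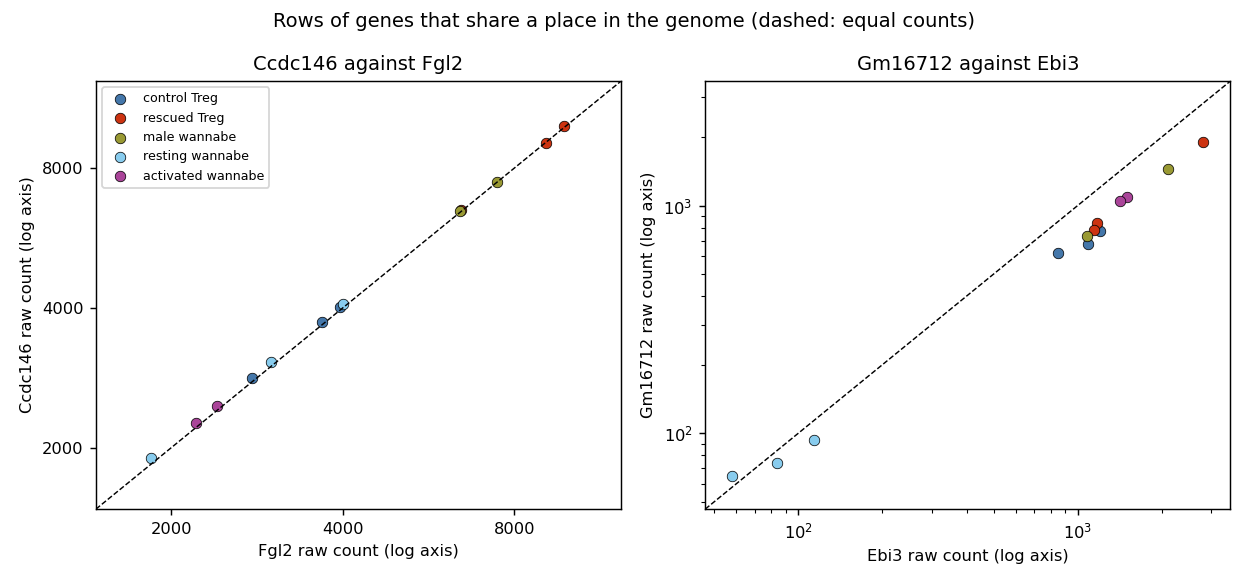
Raw count of *Ccdc146* against *Fgl2* (left) and of *Gm16712* against *Ebi3* (right) in the 13 libraries, on log axes, with a dashed line of equal counts. *Ccdc146* lay at 99.8% to 103% of *Fgl2*, on the line, and *Gm16712* at 62.4% to 112% of *Ebi3*.

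Male wannabes, sorted from sick mice, held the highest *Lgals3* of the male libraries. Against them, 3 of the 6 members were lower in control Treg cells, *Lgals1*, *Lgals3* and *Fgl2*, beside 16.2% of all genes called in either direction, and the members' median log2 fold change was -0.85 against 0.09 over all genes. Against rescued Treg cells, 1 of the 6 members was called, *Lgals3*, beside 14.1% of all genes, and the medians were -0.14 and 0. These comparisons share the male wannabe libraries.

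*Lgals3* was at 9690.4 and 7593.7 in the male wannabe libraries, above all 6 Treg libraries. It was 4.68-fold higher in mean than in control Treg cells (log2 fold change of control against wannabe -2.23 ± 0.29 SE, adjusted p = 0.00103), a call that held when any 1 library was left out. Rescued Treg cells lay between the others (log2 fold change of rescued against wannabe -1.10 ± 0.29 SE, adjusted p = 0.0267). This smaller difference was lost without wannabe replicate 1 (-0.91, adjusted p = 0.11), rescued replicate 2 (-0.92, adjusted p = 0.104) or rescued replicate 3 (-0.94, adjusted p = 0.0859).

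*Lgals1* was at 21117.3 and 22525.8 in male wannabes, again above all Treg libraries. Control Treg cells held about 0.496 of this level (log2 fold change -1.01 ± 0.20 SE, adjusted p = 0.00625), whatever library was left out. The difference from rescued Treg cells did not pass the test (log2 fold change -0.36, 95% interval -0.80 to 0.07, adjusted p = 0.261).

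*Fgl2* was at 7006.5 and 6934.5 in male wannabes, inside the range of rescued and above that of control Treg cells. The log2 fold change of control against wannabe was -1.04 ± 0.28 (SE, adjusted p = 0.0271), and that of rescued against wannabe was 0.38 (95% interval -0.25 to 1.00). The first lost its call without control replicate 2 (-0.86, adjusted p = 0.089), control replicate 3 (-1.11, adjusted p = 0.0589), wannabe replicate 1 (-1.03, adjusted p = 0.063) or wannabe replicate 2 (-1.09, adjusted p = 0.0548).

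*Ebi3* in the male wannabe libraries was at 1012.1 and 2266.3, far apart from each other. It overlapped both Treg groups, and no difference passed the test (log2 fold change -0.70, 95% interval -1.54 to 0.14, for control and 0.07, 95% interval -0.78 to 0.92, for rescued Treg cells). Which wannabe library was kept decided both values. They were -1.17 and -0.398 without wannabe replicate 1 and -0.050 and 0.72 without wannabe replicate 2, none of them called. *Lgals8* was at 2706.4 and 2765.0, below every Treg library but not called (log2 fold change 0.29, adjusted p = 0.24, for control and 0.35, adjusted p = 0.175, for rescued Treg cells). *Lgals9* was at 13578.9 and 14822.2, within the control Treg range (log2 fold change 0.06) and above rescued Treg cells (-0.35, adjusted p = 0.158).

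Single myeloid markers differed in direction among the male libraries. Their summed level was 3.982 to 6.961 CPM in wannabes, where *Lgals3* was highest, against the control and rescued ranges given above. *Itgam*, an integrin chain and the highest of these markers in control, was higher in control Treg than in wannabe cells (259.9 ± 132 against 15.95 ± 18.57 normalized counts, log2 fold change 4.03, adjusted p = 0.0256). *Cd68* lay the other way, at 32 and 173 counts in wannabes against 7 to 25 in control Treg cells (log2 fold change -2.60, adjusted p = 0.0595), and DESeq2 called it lower in control Treg cells. *Adgre1* had 3 and 35 counts in wannabes and 4 to 9 in control, and *Tyrobp* 7 to 8 and 0 to 5, whereas *Csf1r*, *Cd14*, *Fcer1g* and *Spi1* were at or under 3 counts in both wannabe libraries. The NK cell marker *Klrb1c* was lower in control Treg than in wannabe cells (log2 fold change -2.86, adjusted p = 0.0264). Dendritic cell markers were at 4.203 to 7.362 CPM in wannabes, above both Treg groups, with *Itgax*, *Flt3*, *Clec9a*, *Siglech* and *Cd209a* at or under 3 counts in wannabes and *Xcr1* called lower in control Treg cells by DESeq2. The part of other cell types in the members' levels was not tested.

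In female wannabes, 3 of the 6 members were higher in activated than in resting cells, *Ebi3*, *Lgals3* and *Lgals1*, beside 22.5% of all 13166 genes called in either direction. The members' median log2 fold change was 0.71, against -0.01 over all genes. *Ebi3* showed the widest change of the 6 in any comparison.

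*Ebi3* was at 88.35, 116.2 and 60.26 in resting and at 1417.6 and 1353.7 in activated wannabes. The resting libraries held 58 to 114 reads and the activated ones 1418 and 1500, so the groups were far apart, with means of 88.27 ± 27.96 (SD, n = 3) and 1385.6 ± 45.23 (SD, n = 2), a 15.7-fold difference. The log2 fold change was 3.97 ± 0.25 (SE, 95% interval 3.37 to 4.57, adjusted p = 0.000428), and it was called without each library in turn (3.76 to 4.22). The overlapping *Gm16712* changed by 3.66 ± 0.18 (SE) on the log2 scale. Neither flanking protein-coding gene gave a call, with *Zfp119b* at -0.61 (adjusted p = 0.504) and *Shd* below the filter.

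*Lgals3* was at 827.8, 1271.9 and 406.2 in resting and at 3233.1 and 3119.7 in activated wannabes. Resting cells varied several-fold among themselves, yet all lay below both activated libraries, and the means (835.3 ± 432.9 and 3176.4 ± 80.2, SD) differed 3.80-fold. The log2 fold change was 1.93 ± 0.40 (SE, adjusted p = 0.0193). It was lost without activated replicate 1 (1.90, adjusted p = 0.109) or activated replicate 2 (1.94, adjusted p = 0.102), fits that leave 1 activated library, which is then assumed to vary like the resting ones.

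*Lgals1* was at 2748.5, 4841.1 and 2396.9 in resting and at 8224.1 and 7754.4 in activated wannabes, again without overlap. The 2.4-fold difference in the means gave a log2 fold change of 1.26 ± 0.28 (SE, adjusted p = 0.0238). The call was lost without activated replicate 1 (1.22, adjusted p = 0.129), activated replicate 2 (1.30, adjusted p = 0.116) or resting replicate 1 (1.15, adjusted p = 0.05001).

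The other members did not pass the test in wannabes. *Fgl2* was at 3147.1, 4080.8 and 1913.8 in resting and at 2269.2 and 2107.8 in activated cells, where the activated libraries fell inside the resting range (log2 fold change -0.48 ± 0.29 SE, adjusted p = 0.272). Without resting replicate 3, the lowest of the 3, *Fgl2* was called lower in activated wannabes (-0.72, adjusted p = 0.023). *Lgals9* was at 7829.9, 9364.3 and 8677.6 in resting and 9192.9 and 10120.0 in activated cells, and *Lgals8* at 2373.0, 2275.8 and 2367.9 against 2008.3 and 2305.4. Both overlapped, with 95% intervals of the log2 fold change of -0.07 to 0.40 and -0.34 to 0.11.

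Summed levels of markers of several other cell types were higher in the activated group, though single markers of a list did not all move. Myeloid markers summed to 2.02 to 5.776 CPM in resting and 7.172 to 10.06 in activated wannabes, dendritic markers to 3.402 to 4.395 and 6.75 to 8.041, B cell markers to 10.47 to 13.36 and 23.29 to 25.82, and CD8 and NK cell markers to 16.76 to 22.37 and 24.39 to 26.24, none of which overlapped. Granulocyte markers overlapped, at 0.1418 to 0.8051 and 0.2547 to 0.2573, and T cell markers summed to less in activated libraries, at 6917.8 to 7495.3 and 6492.5 to 6732.2, with *Cd28*, *Cd247* and *Cd3e* called lower and *Cd2* higher. Of the lists of other cells only *Cd79b*, a B cell receptor chain, was called (log2 fold change 1.34, adjusted p = 0.00193). It was the highest B cell marker, at 8.345 CPM in resting and 21.1 in activated wannabes, whereas *Cd79a* was flat (-0.01). B cell markers above 3 counts in every library numbered 6 in resting and 3 in activated wannabes. *Xcr1* was the highest dendritic marker (2.737 and 5.219 CPM). *Cd8b1* was the highest CD8 and NK cell marker (11.37 and 14.78), with *Eomes* flat (0.03). *Cd68* had 12 to 33 counts in resting and 59 and 67 in activated libraries, without overlap, and was not called (adjusted p = 0.105). *Clec9a* and *Cd209a* were at or under 3 counts in both groups, and *Cd14* and *Adgre1* in activated wannabes. The part of other cell types in the rise of *Ebi3*, *Lgals3* and *Lgals1* was not tested.

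**Figure D3:**
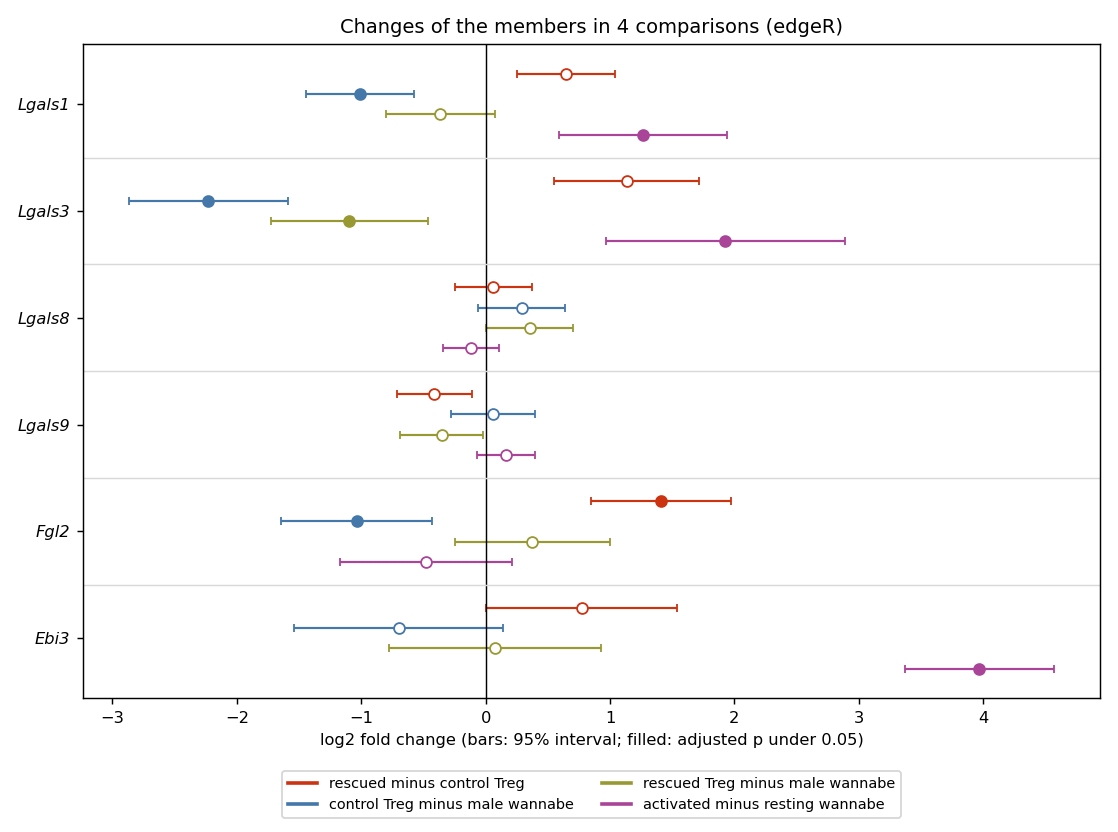
Log2 fold change (points) with 95% interval (bars) of each member in 4 comparisons fitted with edgeR; filled points have an adjusted p under 0.05. *Ebi3* in activated against resting wannabes stands at 3.97, whereas *Lgals8* and *Lgals9* have no filled point.

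The difference between the change in Treg cells (rescued minus control) and the change in wannabes (activated minus resting) was tested in 1 fit of the 5 groups and 13 libraries. This test called 2 of the 6 members, *Ebi3* and *Fgl2*, beside 1.53% of all 15201 genes. *Ebi3* changed by 3.18 less in Treg cells on the log2 scale (-3.18 ± 0.52 SE, 95% interval -4.31 to -2.05, adjusted p = 0.0107). *Fgl2* changed by 1.90 more in Treg cells (± 0.43 SE, adjusted p = 0.0471). This call was lost, at 1.60 to 2.02, without any 1 of the 3 control, rescued replicates 2 and 3, both activated or resting replicates 1 and 2. *Lgals1* (-0.60, 95% interval -1.36 to 0.15), *Lgals3* (-0.78, -1.88 to 0.32), *Lgals9* (-0.56, -0.96 to -0.17, adjusted p = 0.169) and *Lgals8* (0.19, -0.17 to 0.55) were not called. Sex, age, the treatment and the way inflammation arose differ along with the cell type here and cannot be told apart from it. The joint fit used 1 estimate of spread per gene for both experiments. Fitted apart, their common coefficients of variation between replicates were 0.51 (male) and 0.171 (female).

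Compared per length, as CPM per kilobase of exon, *Lgals1* and *Lgals9* were the most abundant of the 6 members in every group. In control Treg cells *Lgals1* was at 365.5 ± 74.64 and *Lgals9* at 211 ± 24.68 CPM per kb (SD, n = 3), above *Lgals3* (30.27), *Lgals8* (27.67), *Fgl2* (27.36) and *Ebi3* (26.69), whose library ranges overlapped. In rescued Treg cells the order was *Lgals1* (572.2), *Lgals9* (158.6), *Fgl2* (72.77), *Lgals3* (66.34), *Ebi3* (45.54) and *Lgals8* (28.88), and from *Fgl2* down each neighbour overlapped the next. In male wannabes it was *Lgals1* (736.6), *Lgals9* (202.6), *Lgals3* (141.8), *Fgl2* (56.09), *Ebi3* (43.3) and *Lgals8* (22.61), of which *Fgl2* and *Ebi3* overlapped.

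The order was different in the female libraries. In resting wannabes *Lgals9* (136 ± 12.12 CPM per kb, SD, n = 3) and *Lgals1* (124.2 ± 49.3) overlapped, *Fgl2* (27.1), *Lgals8* (21.37) and *Lgals3* (15.15) overlapped below them, and *Ebi3* (2.577) was lowest in every library. In activated wannabes *Lgals1* (298.1), *Lgals9* (152.2), *Lgals3* (57.6) and *Ebi3* (40.45) followed each other without overlap, ahead of *Lgals8* (19.7) and *Fgl2* (19.46), which overlapped.

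Of the summed per-length level of all galectin family genes, *Lgals1* made up 55.78 ± 6.913% in control and 68.04 ± 2.053% in rescued Treg cells (SD, n = 3), and *Lgals9* 32.79 ± 6.704% and 19.17 ± 3.074%. In male wannabes *Lgals1* made up 65.43 ± 2.276% and *Lgals9* 17.99 ± 0.9187% (n = 2). In female wannabes *Lgals1* made up 39.39 ± 7.006% at rest (n = 3) and 54.32 ± 1.986% when activated (n = 2), and *Lgals9* 44.99 ± 6.438% and 27.75 ± 2.023%. The share of *Lgals3* was 4.612% in control and 7.791% in rescued Treg cells, 12.61% in male wannabes, and 4.754% in resting and 10.5% in activated wannabes. The library ranges of these 3 shares did not overlap between control and rescued Treg cells, nor between resting and activated wannabes. Shares of a library depend on each other, so a higher share of *Lgals1* leaves less for the others and these are not separate changes. The *Lgals9* level itself was at 136 CPM per kb in resting and 152.2 in activated wannabes, although its share was lower, and it was not called. These shares are descriptions with no test.

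**Figure D4:**
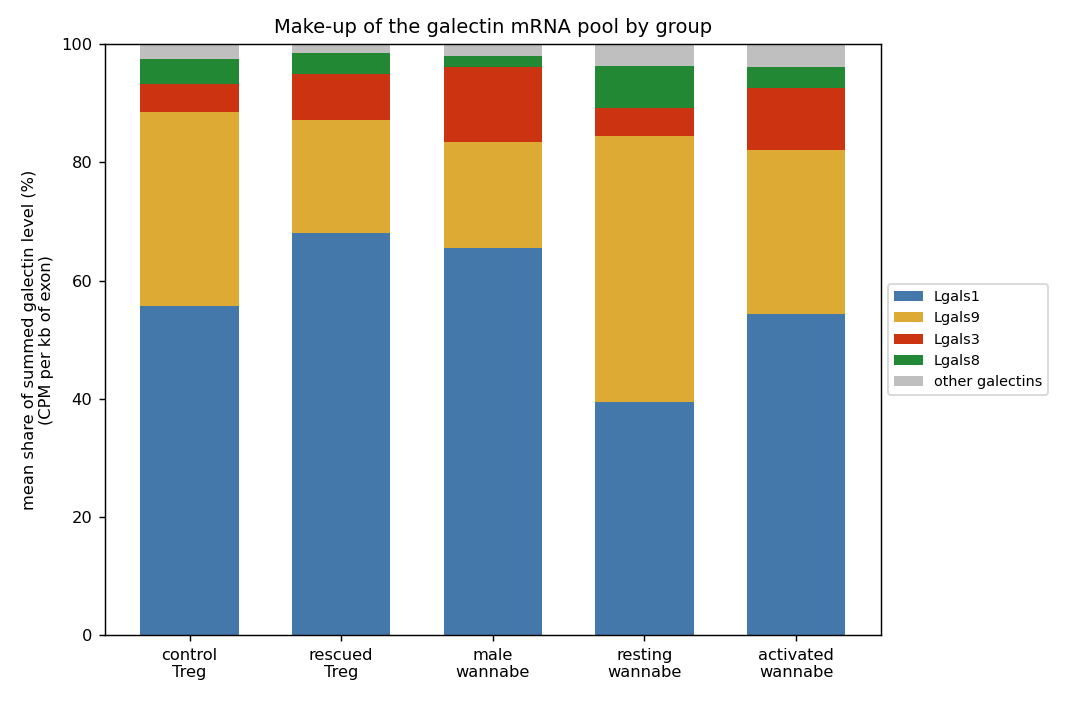
Mean share (%) of the summed galectin level, in CPM per kilobase of exon, held by *Lgals1*, *Lgals9*, *Lgals3*, *Lgals8* and the other galectin genes in each group (3, 3, 2, 3 and 2 libraries). *Lgals1* held 55.78% in control and 68.04% in rescued Treg cells, and 39.39% in resting and 54.32% in activated wannabes.

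Across the 13 libraries, each centred on the mean of its experiment, *Lgals1* and *Lgals3* followed each other closely in log2 CPM (Pearson r = 0.959, 0.957 over the 8 male and 0.976 over the 5 female libraries). *Lgals8* and *Lgals9* ran less closely with them (r of *Lgals1* with *Lgals8* -0.553 and with *Lgals9* 0.019). The last value pooled an r of -0.407 over the male and 0.785 over the female libraries. *Fgl2* and *Ebi3* likewise had a pooled r of 0.026, with 0.578 over the male and -0.361 over the female libraries. The libraries share their groups, so these values mainly restate group differences and carry no p.

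Among 10240 well-expressed genes, those most like *Lgals1* by this measure were *Ccdc34* (r = 0.971), the glycolytic enzyme gene *Gapdh* (0.965) and *1500009L16Rik* (0.959). Those most like *Lgals3* were the mitochondrial ADP/ATP carrier *Slc25a4* (0.973), the calmodulin gene *Calm3* (0.972) and *Slc44a5* (0.969). *Lgals8* was most like *Kmt5b* (0.956), *Ext2* (0.951) and *Ets2* (0.949). For *Lgals9* they were *Xaf1* (0.927), *Isg15* (0.912) and *Bst2* (0.899), each known as an interferon-stimulated gene. *Xaf1* was at 2793.2 ± 615.6 in control and 1279.4 ± 132.1 in rescued Treg cells, and *Isg15* at 2192.3 ± 1413.8 and 639.7 ± 172.3 (normalized counts, SD, n = 3). *Fgl2* was most like the overlapping *Ccdc146* (1.000), then *M6pr* (0.905) and *Kctd17* (0.901), and *Ebi3* was most like the overlapping *Gm16712* (0.996), then *Tnfrsf4* (0.964), which encodes the costimulatory receptor OX40, and *Ncf4* (0.947). *Tnfrsf4* was at 6352.8 ± 653.3 in resting (n = 3) and 18243.3 ± 898.6 in activated wannabes (n = 2).

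The transcripts of the subunits that Ebi3 pairs with were at or near the limit of detection. *Il12a*, the p35 subunit of IL-35 and IL-12, had 1 count in control replicate 2, 2 counts in activated replicate 1 and 0 elsewhere. *Il27*, the p28 subunit, had 4 counts in control replicate 2, 3 in rescued replicate 1 and 0 elsewhere. In the same 13 libraries *Ebi3* had 58 to 2817 counts. The limit that a count of 0 allows, 3 counts, covers counting error only, so at this depth neither partner was detectable above it apart from the 4 *Il27* counts. *Il12b* had 26 counts in rescued replicate 3, the library with the highest *Ebi3*, and 0 in the others, and *Il23a* had 2 counts in that same library only. Of these 5 subunit genes only *Ebi3* passed the filter in either experiment.

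**Figure D5:**
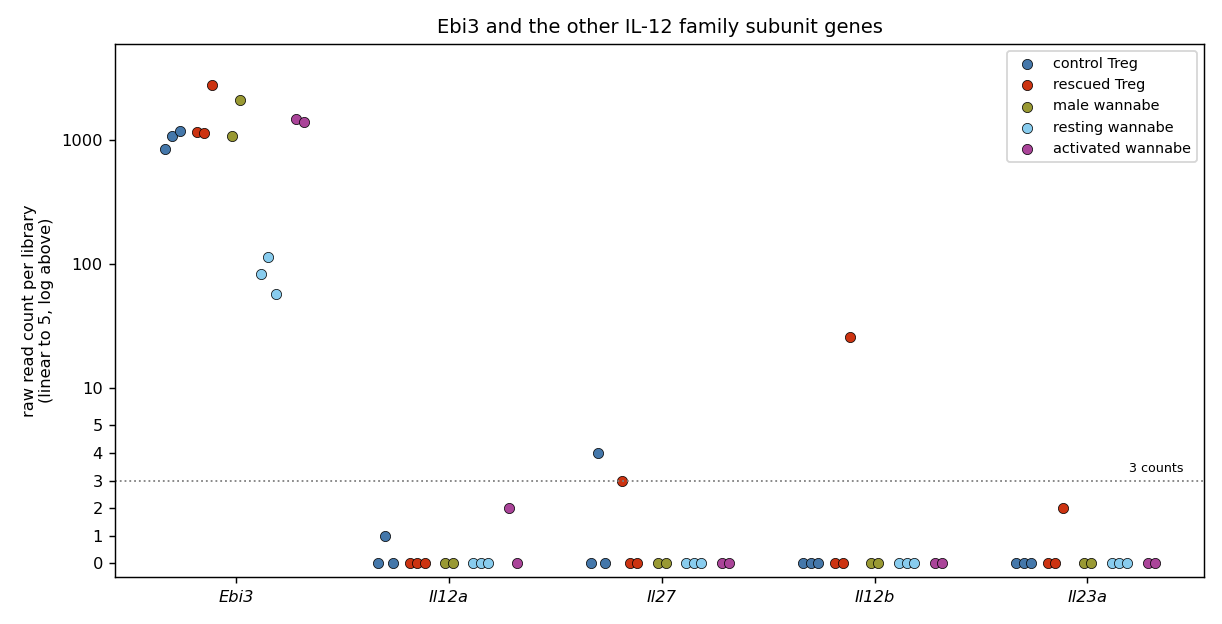
Raw read counts of *Ebi3* and the other IL-12 family subunit genes in each library, on an axis that is linear to 5 and logarithmic above; the dotted line marks 3 counts. *Ebi3* had 58 to 2817 counts, and *Il12a* had at most 2 and *Il27* at most 4.

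Receptors and signalling genes of the IL-12 family were measured more deeply, with 12 of 12 tested. In activated against resting wannabes 3 were higher and 2 lower (median log2 fold change 0.03), 5 of 12 beside 22.5% of all genes, and DESeq2 also called *Il6ra* and *Il6st* lower. *Il12rb2*, a chain of the IL-12 and IL-35 receptors, rose by 3.07 ± 0.27 (SE, adjusted p = 0.000937), and *Il23r*, the IL-23 receptor, fell by 4.70 ± 0.61 (SE, adjusted p = 0.00378). The kinase gene *Jak2* rose by 0.96 (adjusted p = 0.0257) and the IL-27 receptor gene *Il27ra* fell by 0.47 (adjusted p = 0.0123). In rescued against control Treg cells edgeR called 1 of 12, beside 2.30% of all genes, the shared receptor chain *Il6st* (-0.74, adjusted p = 0.0207). DESeq2 called *Il6st* and *Il12rb1* there (edgeR log2 fold change of *Il12rb1* 1.00, adjusted p = 0.0995). Control against male wannabe cells gave 3 of 12 higher, beside 16.2% of all genes called in either direction. They were *Il6ra* (1.59, adjusted p = 0.00202), *Jak1* (1.24, adjusted p = 0.00105) and *Il6st* (1.02, adjusted p = 0.00229). Rescued against male wannabe cells gave 3 of 12, beside 14.1% of all genes called in either direction. *Jak1* (1.38, adjusted p = 0.0004) and *Il6ra* (1.26, adjusted p = 0.00537) were higher, and *Jak2* was lower (-0.79, adjusted p = 0.0348).

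For Fgl2, the inhibitory receptor gene *Fcgr2b* had 0 counts in the control and male wannabe libraries, 1 in each rescued library, 0, 2 and 5 in resting and 8 and 11 in activated wannabes, and it was not tested. Of 8 genes listed around Fgl2, 4 were tested in the male and 2 in the female fit. The inhibitory receptor *Tigit* was higher in rescued than in control Treg cells (log2 fold change 1.41 ± 0.18 SE, adjusted p = 0.00397) and lower in control Treg than in male wannabe cells (-1.38 ± 0.20 SE, adjusted p = 0.00154). In activated against resting wannabes *Tigit* was at 2533.6 and 2767.2 against 933 to 1883.5 normalized counts, without overlap, which DESeq2 called and edgeR did not (log2 fold change 0.82, adjusted p = 0.0733). The inhibitory receptor *Lag3*, a binding partner of galectin-3 and of the related Fgl1, was lower in activated than in resting wannabes (-2.32 ± 0.22 SE, adjusted p = 0.00126). In control Treg against male wannabe cells *Lag3* was at -1.27 (adjusted p = 0.0635), called lower by DESeq2. In rescued against male wannabe cells edgeR called 0 of the 4, also at an unadjusted p under 0.05, and DESeq2 called 0.

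Of the 10 galectin family genes in the tables, 9 were tested in the male and 8 in the female fit. Against male wannabes, control Treg cells had 1 higher and 3 lower, beside 16.2% of all genes called in either direction. The 2 beyond the members were *Grifin* (2.29 ± 0.62 SE, adjusted p = 0.0285) and *Lgals7* (-4.60 ± 0.69 SE, adjusted p = 0.00187). *Lgals7* was also lower in rescued Treg cells than in male wannabes (-2.20 ± 0.63 SE, adjusted p = 0.0403) and higher in activated wannabes (3.61 ± 0.30 SE, adjusted p = 0.000801). Its normalized count was low, at 28.92 ± 9.481 (SD, n = 3) in resting and 354.6 ± 47.85 (SD, n = 2) in activated wannabes. *Lgals4* was lower in activated wannabes (-0.89, adjusted p = 0.0195). In rescued against control Treg cells edgeR called 0 of the 9, beside 2.30% of all genes, with 5 at an unadjusted p under 0.05. DESeq2 called 3 higher there, *Lgals1*, *Lgals3* and *Lgals7*.

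Among 11 galectin ligands and partners, activated wannabes had 3 higher and 1 lower than resting ones, beside 22.5% of all genes (median log2 fold change 0.32). *Cd7*, a galectin-1 receptor, rose by 3.37 ± 0.23 (SE, adjusted p = 0.000466), *Tnfrsf9*, the receptor 4-1BB that galectin-9 binds, by 1.31 (adjusted p = 0.0127) and *Havcr2*, which encodes the galectin-9 receptor TIM-3, by 0.60 (adjusted p = 0.0423), while *Lag3* fell. *Tnfrsf9* was higher in control (1.66 ± 0.16 SE, adjusted p = 0.000368) and rescued Treg cells (1.91 ± 0.17 SE, adjusted p = 0.000233) than in male wannabes. *Havcr2* (-2.47, adjusted p = 0.0124) and *Spn*, which encodes CD43 (-0.75, adjusted p = 0.0145), were lower in control Treg cells than in male wannabes, and *Lgals3bp* (-0.92, adjusted p = 0.0252) was lower in rescued Treg cells. In rescued against control Treg cells edgeR and DESeq2 both called 0 of the 11, with 4 at an unadjusted p under 0.05 by edgeR.

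Of 15 enzymes that build or cap galectin ligands, 1 was higher and 1 lower in rescued than in control Treg cells, beside 2.30% of all genes. *Mgat2*, which starts a branch of N-glycans, rose (1.37 ± 0.27 SE, adjusted p = 0.0254), and *Mgat5*, which makes the branch that galectin-3 binds well, fell (-0.94 ± 0.16 SE, adjusted p = 0.014). *Mgat5* was at 4842.9 ± 259 in control, 2529.5 ± 350.4 in rescued Treg cells (SD, n = 3) and 2467.2 ± 73.76 in male wannabes (SD, n = 2). Against male wannabes, 5 were higher and 2 lower in control Treg cells, beside 16.2% of all genes (median log2 fold change 0.48), led by *Mgat2* (1.75), *Man2a1* (1.57), *Gcnt1* (-1.53) and *Man1a* (1.40), where DESeq2 called 7 higher and 2 lower, and 6 were higher and 2 lower in rescued Treg cells, beside 14.1% of all genes (median 0.23), led by *Mgat4b* (3.43), *Mgat2* (3.12), *Gcnt1* (-1.83) and *B3gnt2* (1.53). Normalized counts of *Mgat4b* spread from 160.7 to 622.6 over the rescued libraries, against 29.08 to 32.89 in male wannabes. In wannabes 1 was higher and 1 lower on activation, 2 of 15 beside 22.5% of all genes. These were *Gcnt1* (3.16 ± 0.21 SE, adjusted p = 0.000466), which makes core 2 O-glycans, and *C1galt1c1* (-0.60, adjusted p = 0.0272). Of 6 autophagy adaptors of damaged, galectin-marked vesicles 5 were tested. *Trim16* was lower in control Treg than in male wannabe cells (-3.49 ± 1.00 SE, adjusted p = 0.0365) and higher in activated wannabes (0.97, adjusted p = 0.0482), in which *Tax1bp1* was lower (-0.27, adjusted p = 0.0323). In rescued Treg cells edgeR called 0 of the 5 against control Treg cells, with 0 at an unadjusted p under 0.05 and 0 by DESeq2, and 0 against male wannabes, with 2 at an unadjusted p under 0.05 and 1 by DESeq2 (*Sqstm1*).

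In the difference of changes, the genes of these lists that edgeR called, other than the members, were *Gcnt1* (-3.45 ± 0.41 SE, adjusted p = 0.00119), *Cd7* (-2.91 ± 0.38 SE, adjusted p = 0.00252) and *Lag3* (3.33 ± 0.50 SE, adjusted p = 0.00628). DESeq2 also called *Tnfrsf9*, *Mgat2*, *Mgat5*, *Il12rb2* and *Jak2*. As for *Ebi3*, the negative values say that the change from resting to activated wannabes was the more positive.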

How the data were processed

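RNA of sorted cells was amplified with the SMART-Seq v4 kit, and 13 libraries of 5 groups were used. The authors aligned reads with STAR 2.7.3a to GRCm38, realigned them locally and deposited counts, whole numbers of reads per gene that had not been normalized. The gene annotation and strand setting of the counting are not given in the sources used here. The 2 tables list 24421 rows, of which 4 without a gene name (0.00353 to 0.00841% of counts) were left out. Groups come from the titles and genotypes of the libraries, and columns of the male table named DTR, GFP or Thy1 were tied to them through genotypes and the sort in the methods. Per the study's methods libraries are biological replicates, and p-values measure the spread between them.

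The 8 male libraries were fitted together and the 5 female libraries on their own in R 4.3.3 with edgeR 4.0.16 (TMM, filterByExpr, quasi-likelihood F test, Benjamini-Hochberg over all genes tested). SE is the log2 fold change divided by the root of F. Levels per length divide CPM by the exon length in GENCODE M21, which matched 23607 genes (96.7%). Likeness is Pearson's r of log2 CPM (prior count 2) among genes with a mean normalized count over 100, of which the 3 highest are named. Of each list, up to 4 called genes with the widest change per comparison are named, and *Il12a*, *Il27* and *Fcgr2b* in any case. Genes overlapping or flanking members, *Il12b*, *Il23a*, *Thy1*, *Foxp3*, list genes called by DESeq2 alone, and single markers of other cells were added outside this rule, after values were seen. Promoter sequences are from RefSeq (GRCm38.p6).

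Alternatives were DESeq2 1.42.0, its size factors in edgeR, no filter, the replicate number as a block, only the 2 groups compared and leaving out each library. The fits were also run on simulated counts with large changes in well-expressed genes, which cannot judge the calls near the threshold here. The members and lists were chosen with earlier results of these data known.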

Additional observations from a re-analysis of the deposited data

Results flagged for a closer look

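A change that differed between the experiments was found for 2 members. Fitted on its own experiment, the log2 change of *Ebi3* was 0.77 in Treg cells (rescued minus control) and 3.97 in wannabes (activated minus resting). The difference, estimated in a separate joint fit of the 13 libraries, was -3.18 (SE 0.52, edgeR adjusted p = 0.0107). It was called without each of the 13 libraries in turn, with values from -3.58 to -2.95. For *Fgl2*, whose changes were 1.41 and -0.48, the difference in the joint fit was 1.90 (SE 0.43, edgeR adjusted p = 0.0471). It was called in 4 of the 13 fits that leave out a library (without either male wannabe, rescued replicate 1 or resting replicate 3), with values from 1.60 to 2.15 and adjusted p-values up to 0.24. The *Ccdc146* row, which holds nearly the *Fgl2* count, gave 1.89 and the *Gm16712* row, which overlaps *Ebi3*, gave -2.83. Cell type, sex, age and treatment cannot be told apart in these differences.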

How the results depend on the processing

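With 2 or 3 libraries a group, calls near the threshold depended on the fit, and the cause was not tested. In rescued against control Treg cells the members called rose from 1 to 3 with DESeq2 and to 2 without the filter, with the replicate block and with only the 2 groups compared, and were 0 to 2 when 1 library was left out. The genes called there were 343, but 1195 with DESeq2, 612 without the filter, 580 with only the 2 groups and 114 to 598 without a library. DESeq2 called 3751 genes in place of 2416 for control Treg against male wannabe cells, 3316 in place of 2105 for rescued Treg against male wannabe cells and 792 in place of 233 for the difference of changes. Leaving out 1 library gave 1549 to 2423, 1570 to 1959 and 44 to 430 genes in these, with 2 to 3, 0 to 1 and 1 to 2 members. In activated against resting wannabes it gave 751 to 3215 genes and 1 to 4 members.

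Signs turned for 2 differences, neither of which was called in any fit. *Lgals9* in control Treg against male wannabe cells was -0.035 without control replicate 2 and -0.008 without wannabe replicate 1, within a range of -0.035 to 0.129 over the libraries left out. *Ebi3* in rescued Treg against male wannabe cells was -0.14 with the replicate block, -0.398 without wannabe replicate 1 and -0.341 without rescued replicate 3, within -0.398 to 0.724 over the libraries left out. Deviations from the group means correlated at most at 0.0845 between same-numbered libraries, and not every library correlated best with its own number. With 2 or 3 libraries a group, these correlations cannot decide whether the numbers pair the samples. With the replicate block *Lgals3* was called in rescued against control Treg cells (1.11, adjusted p = 0.0157) and *Fgl2* in activated against resting wannabes (-0.71, adjusted p = 0.0258). DESeq2's size factors changed no call of a member.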

Other observations

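*Dlgap5*, a mitotic spindle gene that lies 1619 bases beyond *Lgals3*, was singled out after its values were seen. It was lower in control (log2 fold change -1.77 ± 0.36 SE, edgeR adjusted p = 0.00778) and rescued Treg cells (-1.38 ± 0.36 SE, adjusted p = 0.0253) than in male wannabes, and higher in activated than in resting wannabes (2.21 ± 0.15 SE, adjusted p = 0.000466), the same 3 comparisons in which *Lgals3* was called with the same sign. *Mapk1ip1l*, the nearest protein-coding gene on the other side at 44547 bases, was called in none of the 5 comparisons.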
